A study of Mus musculus with 2 samples.

Results

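10 genes of the Wnt pathway, given by name as Lef1, Tcf7l1, Tcf7l2, Axin2, Sfrp1, Wif1, Dkk3, Frzb, Nkd1 and Fzd5, were followed across the cell types of the postnatal arcuate nucleus and median eminence. They are 10 of the 20210 genes in the table of both libraries, and all 10 were detected. Single cells carrying the tdTomato reporter were sorted from CD-1 mice at postnatal day 10 and profiled by droplet 3′ RNA sequencing with 10x version 3 chemistry. The control library came from Ins2-Cre;tdTomato+/- animals, and the dHet library from Ins2-Cre;tdTomato+/-;Irx3/5+/- animals, heterozygous for the neighbouring transcription factor genes Irx3 and Irx5. Both groups therefore share the Ins2-Cre driver and the Ai14 tdTomato reporter, and each is 1 library from 1 pool of 5 mice per the labels. The sorted population is what Cre under the Ins2 promoter has marked, so it is not a census of the tissue. The labels' protocol included papain digestion and removal of cells that took up Sytox blue.

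With 1 library per genotype no test across animals could be made. Intervals on values below are 95% intervals that cover counting error only. Kept were 3465 control and 3908 dHet cells, with medians of 16489 and 17104 unique molecular identifiers (UMIs, counted RNA molecules). Joint clustering, with all Wnt genes left out of the genes that defined clusters, gave 33 clusters, of which 30 held at least 20 cells from each library and 14 held at least 100. A level is the UMIs of a gene per 1000000 UMIs of the cluster (CPM). Clusters are called "-like" where marker genes support a name, and otherwise by their leading genes. No cluster took the name of endothelial, mural, microglial, fibroblast or blood cells, whose summed markers lay between 0.197 and 47.8 CPM over all cells. Ins2 itself gave 50 UMIs in the control library. The targeted genes were lower in the library labelled dHet, with 94 and 42 UMIs of Irx3 (ratio of CPM 0.395, interval 0.268 to 0.574) and 180 and 106 UMIs of Irx5 (0.520, interval 0.405 to 0.665). The libraries share 4 cell barcodes.

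Wnt proteins are secreted lipid-modified ligands that bind Frizzled receptors together with Lrp co-receptors. In the canonical branch this stabilises β-catenin, which enters the nucleus and binds DNA through factors of the TCF/LEF family. Secreted antagonists of the Sfrp, Wif and Dkk families limit the signal outside the cell, and Axin2 and Nkd1 are feedback inhibitors inside it that are themselves induced by the pathway. In the hypothalamus, Wnt signalling is known for its part in regional patterning and in neurogenesis, and tanycytes, the radial glia-like cells that line the floor of the third ventricle, retain progenitor features after birth.

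All 10 members are protein-coding genes on GRCm38 in the GENCODE annotation. For 8 of the 10, RefSeq start-site windows on GRCm38.p6 were at hand, 12 in all. The 6 stretches of 250 bases before a start site shown run 5′ to 3′ on the gene's strand. Lef1 and Wif1 are shown because both peaked in the same neuron cluster, Fzd5 and Frzb because both peaked in tanycyte-like cells, and Axin2 as the feedback target. Capitals mark TCAAAG, the reverse complement of the TCF/LEF core CTTTGA; both orientations were searched, with no overlap between matches.
Lef1, first start site (chr3:131110047-131110296, plus strand): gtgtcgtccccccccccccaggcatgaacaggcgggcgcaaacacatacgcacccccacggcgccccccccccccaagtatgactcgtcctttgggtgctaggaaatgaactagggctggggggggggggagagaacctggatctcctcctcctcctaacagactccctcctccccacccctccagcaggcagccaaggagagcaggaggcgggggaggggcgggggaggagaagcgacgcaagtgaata
Lef1, internal start site (chr3:131156044-131156293, plus strand): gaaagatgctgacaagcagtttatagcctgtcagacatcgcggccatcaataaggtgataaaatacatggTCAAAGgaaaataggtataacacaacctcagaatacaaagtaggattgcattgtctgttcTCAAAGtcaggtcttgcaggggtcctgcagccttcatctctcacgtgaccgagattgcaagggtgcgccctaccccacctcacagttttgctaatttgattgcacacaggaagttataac
Wif1 (chr10:121033754-121034003, plus strand): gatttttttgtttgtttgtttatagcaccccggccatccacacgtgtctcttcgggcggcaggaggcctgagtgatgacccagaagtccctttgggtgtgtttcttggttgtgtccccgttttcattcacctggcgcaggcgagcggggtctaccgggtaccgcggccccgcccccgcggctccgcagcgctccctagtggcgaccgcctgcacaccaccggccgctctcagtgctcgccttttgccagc
Fzd5 (chr1:64737751-64738000, minus strand): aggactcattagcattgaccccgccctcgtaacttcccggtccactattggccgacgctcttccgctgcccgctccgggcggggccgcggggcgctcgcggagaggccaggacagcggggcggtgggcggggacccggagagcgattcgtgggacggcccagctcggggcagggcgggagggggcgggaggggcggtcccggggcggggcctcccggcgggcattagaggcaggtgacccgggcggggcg
Frzb (chr2:80447397-80447646, minus strand): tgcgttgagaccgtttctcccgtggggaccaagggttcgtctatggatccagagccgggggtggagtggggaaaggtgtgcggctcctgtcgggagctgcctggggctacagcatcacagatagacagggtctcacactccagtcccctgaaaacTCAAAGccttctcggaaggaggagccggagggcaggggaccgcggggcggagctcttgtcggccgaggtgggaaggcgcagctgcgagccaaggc
Axin2 (chr11:108920099-108920348, plus strand): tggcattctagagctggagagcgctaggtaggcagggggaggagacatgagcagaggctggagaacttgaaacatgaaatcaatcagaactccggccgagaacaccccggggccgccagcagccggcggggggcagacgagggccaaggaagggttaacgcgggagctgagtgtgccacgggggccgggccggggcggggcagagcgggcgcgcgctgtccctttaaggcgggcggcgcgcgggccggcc
In windows of 300 bases (250 before and 50 after the start), the core was found in 2 of the 12 member windows (16.7%) and in 16% of all 32851 windows. The 2 were the internal start of Lef1, with 2 matches, and Frzb, with 1. The share among the members is thus close to that of all windows.

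Each member had its own distribution over cell types, and these are described first, by role. The heat map of levels shows the 10 genes over 29 of the 30 clusters in both libraries.

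**Figure D1:**
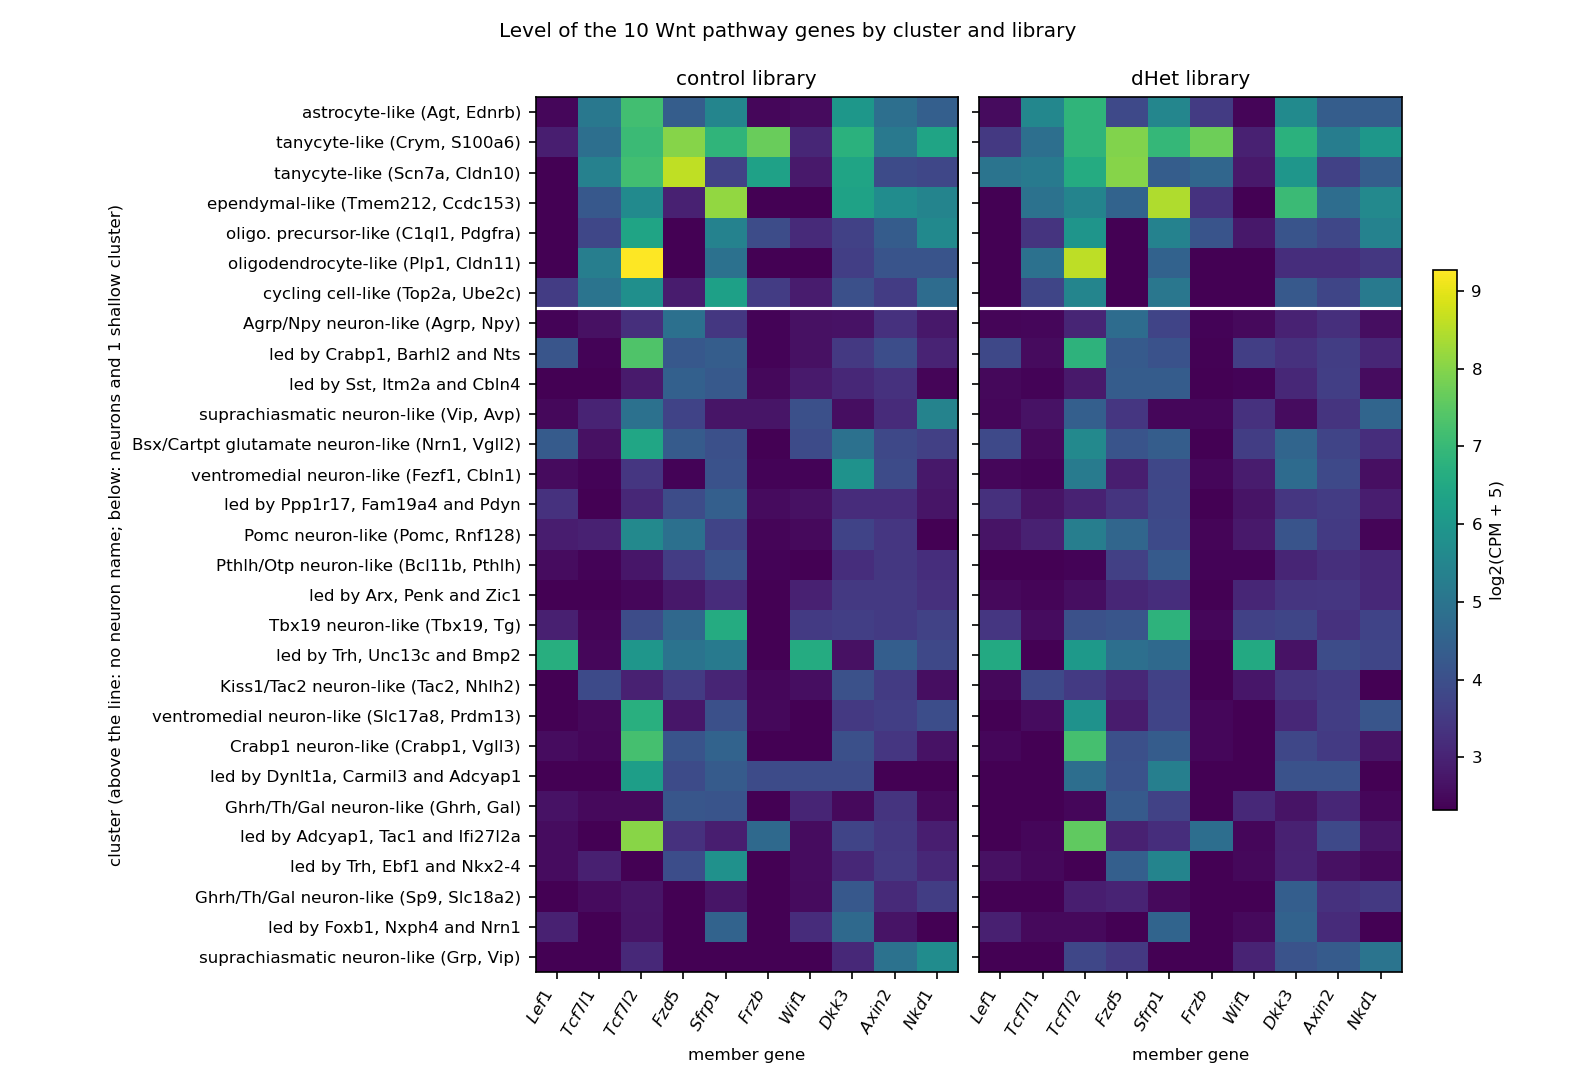
Level of each member, as log2(CPM + 5), in 29 of the 30 described clusters (rows) of the control library (left) and the dHet library (right). Lef1 and Wif1 are bright in 1 neuron cluster, the one led by Trh, Unc13c and Bmp2, while Fzd5 and Frzb are brightest in the tanycyte-like clusters and Tcf7l2 in oligodendrocyte-like cells.

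Among the nuclear factors, Lef1 (chr3:131110471-131224356, plus strand) was the most restricted. Lef1 is a DNA-binding partner of β-catenin and, in many tissues, is itself a Wnt target. Its level was 98.1 CPM in control and 88.9 CPM in dHet cells of the neuron cluster led by Trh, Unc13c and Bmp2, from 237 and 196 UMIs. This cluster held 109 control and 118 dHet cells, and gave 58.2% and 55.5% of all Lef1 UMIs. The median over the 30 clusters was 0.815 CPM in control and 0.469 CPM in dHet cells. The next levels among neurons were 14.8 and 9.38 CPM in Bsx/Cartpt glutamate neuron-like cells and 12.8 and 9.20 CPM in the Crabp1/Barhl2/Nts cluster; the intervals of these 2 clusters overlap each other in both libraries. At full depth 80.7% and 75.4% of the Trh/Unc13c/Bmp2 cells had a Lef1 UMI, at median depths of 21810 and 18672 UMIs. In Agrp/Npy neuron-like cells, with medians of 31169.5 and 27115.5 UMIs, the shares were 0.588% and 0.610%. Cells with at least 4000 UMIs were then thinned to that depth, and the 389 control and 274 dHet cells below it were left out. The shares at 4000 UMIs in the Trh/Unc13c/Bmp2 cluster were 30.3% (interval 21.8 to 39.8%) and 30.8% (22.6 to 40.0%). They were 0 in Agrp/Npy neuron-like cells of both libraries (upper limits 2.18% and 1.13%).

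Wif1 (chr10:121033960-121100650, plus strand), a secreted protein that binds Wnt ligands directly, followed the same cluster. Its level there was 91.5 CPM in control and 87.6 CPM in dHet cells, from 221 and 193 UMIs, and the medians over clusters were 1.18 and 1.59 CPM. Among the 30 described clusters no other passed 11.9 CPM in the control library. A cluster led by Wfdc2, Epcam and Atf3, with 24 control and 18 dHet cells too small to be among the 30, had Wif1 at 90.9 CPM (61.8 to 129) in control and 10.1 CPM (1.23 to 36.6) in dHet, from 31 and 2 UMIs of which 81.8% lay in 5 cells. A Wif1 UMI was found in 42.2% and 36.4% of the cluster's cells (21.1% and 18.8% at 4000 UMIs), against 3.53% and 1.83% (0.599% and 0.309%) of Agrp/Npy neuron-like cells. Over the 30 clusters Lef1 and Wif1 correlated at r = 0.74 in control and 0.81 in dHet cells on log2(CPM + 5), with depth and libraries shared between the points and with 1 cluster carrying most of the range. Within the cluster at 4000 UMIs, 30.3% (15.6 to 48.7%) of control cells with a Lef1 UMI also had a Wif1 UMI against 21.1% of all its cells. In the dHet library the same share was 11.1% (3.11 to 26.1%) against 18.8%. The likeness thus held between clusters. Between cells it was not shown in either library, since both intervals hold the share among all cells. The genes whose pattern was most like both were Bmp2, a ligand of the BMP family, and Trh, the precursor of thyrotropin-releasing hormone (r between 0.48 and 0.68). Both also lead the cluster by name. Only Lef1 and Wif1 of the 10 members were at least 2-fold higher there than in all other cells in both libraries, which 0.519% of all genes were.

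Tcf7l2 (chr19:55741820-55933654, plus strand), the TCF factor known for its part in oligodendrocyte maturation and in thalamic and midbrain neurons, was the most widespread of the family. Oligodendrocyte-like cells (30 control and 39 dHet cells) had the top level, 612 CPM in control and 377 CPM in dHet. The Adcyap1/Tac1 neuron cluster was the second of the 30 in both libraries, at 257 and 184 CPM. The Crabp1/Barhl2/Nts cluster was the third in control only, at 159 and 107 CPM, and Crabp1 neuron-like cells, at 143 CPM in both libraries, were the third in dHet. Astrocyte-like cells lay at 139 and 111 CPM and the tanycyte-like clusters together at 132 and 108 CPM, and these glia did not differ beyond their intervals in either library. Levels in the other neurons ran from 0 upwards, and 17 of the 30 clusters passed 20 CPM in each library. In the cluster led by Trh, Ebf1 and Nkx2-4, 0 UMIs were counted in 49 control and 86 dHet cells (3 UMIs would be 2.63 and 1.75 CPM), and Agrp/Npy neuron-like cells lay at 4.54 and 3.24 CPM. Pomc neuron-like cells, at 43.6 and 34.1 CPM, were well above the Agrp/Npy ones. The plot of Tcf7l2 by cluster shows this range.

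**Figure D2:**
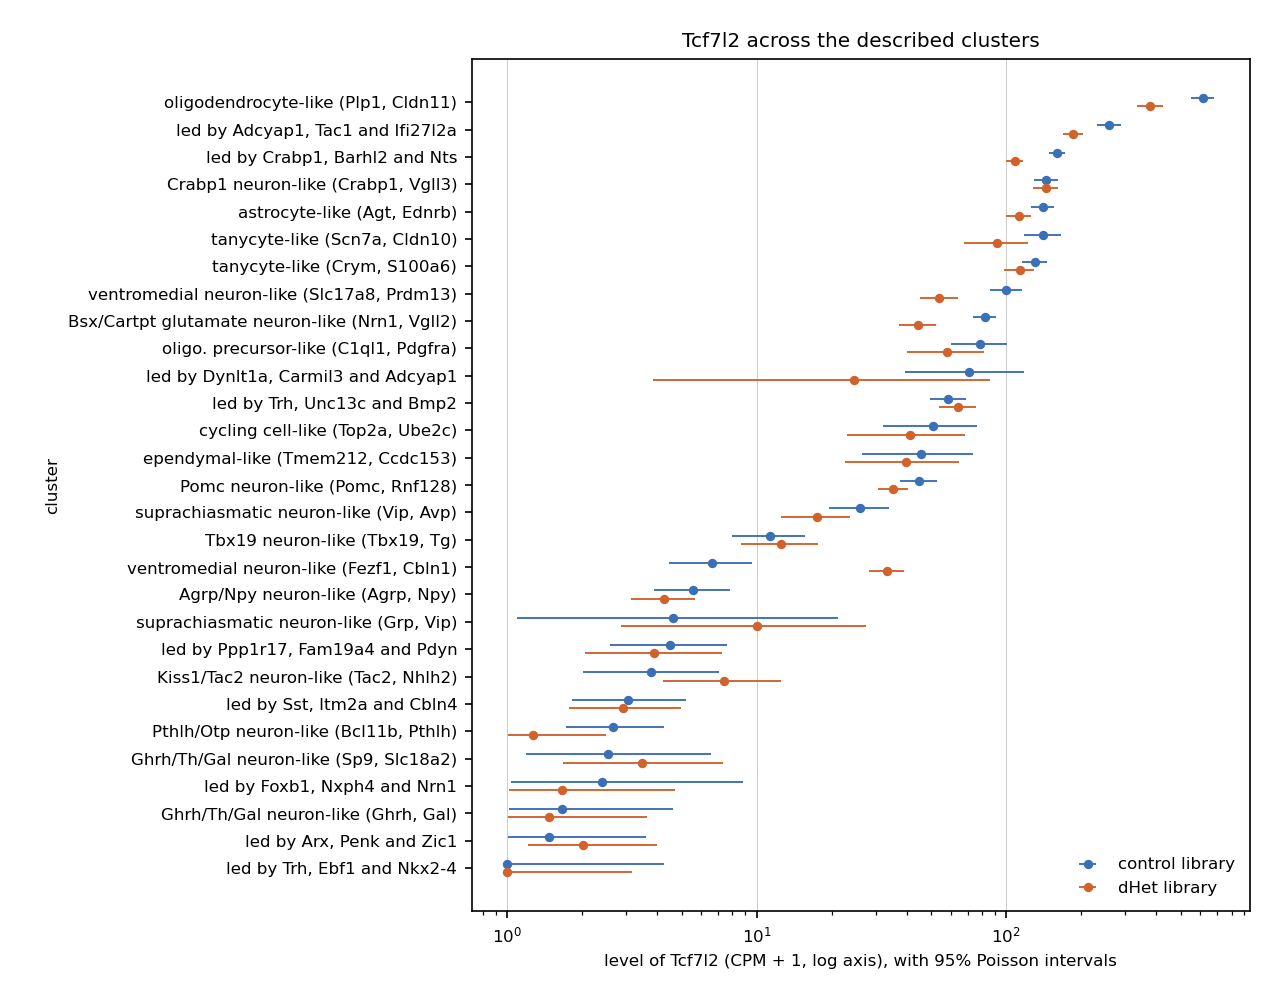
Level of Tcf7l2 (CPM + 1, log axis) in 29 of the 30 described clusters of the control (blue) and dHet (orange) library; bars are 95% Poisson intervals. The clusters run from 0 CPM in the Trh/Ebf1/Nkx2-4 cluster to 612 CPM in oligodendrocyte-like control cells, and the Fezf1/Cbln1 ventromedial neuron-like cluster is the one with a dHet level far above its control level (32.4 against 5.61 CPM).

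Tcf7l1 (chr6:72626378-72789254, minus strand), a TCF factor that mostly acts as a repressor, was higher in glia than in neurons. Astrocyte-like cells had 29.4 CPM in control and 41.8 CPM in dHet, tanycyte-like cells 27.8 and 25.4 CPM, and oligodendrocyte-like cells 34.2 and 24.9 CPM. The intervals of astrocyte- and tanycyte-like cells overlap for control cells only. The small Wfdc2/Epcam/Atf3 cluster had 46.9 and 65.8 CPM from 16 and 13 UMIs. Neuron-like cells together lay at 1.09 and 0.917 CPM. The exception among neurons was the Kiss1/Tac2 neuron-like cluster, at 9.76 CPM (21 UMIs) and 9.35 CPM (16 UMIs). Its nearest genes over clusters were Csrp1, Rest and Jam2 (r from 0.92 to 0.96). Rest encodes a repressor of neuronal genes.

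Fzd5 (chr1:64730558-64737751, minus strand), the only Wnt receptor among the members, marked tanycyte-like cells. Its level was 252 CPM in control and 244 CPM in dHet cells of the larger tanycyte-like cluster (led by Crym and S100a6), and 381 and 250 CPM in the smaller one (led by Scn7a and Cldn10). The 2 clusters held 56.3% of all control and 41.2% of all dHet UMIs of Fzd5. Astrocyte-like cells had only 15.5 and 9.38 CPM, and no UMI was counted in oligodendrocyte precursor-like cells of either library, where 3 UMIs would be 3.87 and 5.34 CPM. Among neurons the levels were low but not nil, at 24.8 and 22.4 CPM in Agrp/Npy and 24.5 and 19.7 CPM in Pomc neuron-like cells, which did not differ beyond their intervals. A Fzd5 UMI was found in 69.4% and 63.1% of tanycyte-like cells, at median depths of 9426 and 7398 UMIs, and in 6.90% and 4.96% of astrocyte-like cells, at 5615 and 6376 UMIs. At 4000 UMIs the shares were 53.0% and 52.4% against 4.87% and 2.33%. These are shares of the cells deep enough to be thinned, 304 and 231 tanycyte-like and 308 and 344 astrocyte-like cells. The genes nearest to Fzd5 over clusters were Rax, a homeobox gene that defines tanycytes, Pon3 and 1700063D05Rik (r from 0.80 to 0.83).

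Of the secreted inhibitors, Frzb (chr2:80411970-80447625, minus strand) was the most confined to tanycyte-like cells. Frzb, also called Sfrp3, resembles the ligand-binding part of a Frizzled receptor. The larger tanycyte-like cluster had 199 CPM in control and 207 CPM in dHet and held 76.1% and 74.3% of all Frzb UMIs. All neuron-like cells together had 0.735 and 1.15 CPM. The Adcyap1/Tac1 cluster was the neuron cluster with the highest level, 20.9 and 23.6 CPM. Rax, Crym and 1700063D05Rik were the genes most like it (r from 0.84 to 0.89).

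Sfrp1 (chr8:23411502-23449632, plus strand), a secreted Frizzled-related antagonist, peaked instead in ependymal-like cells, the ciliated lining of the ventricle. They had 276 CPM in control and 344 CPM in dHet, from 24 and 25 cells. The larger tanycyte-like cluster had 111 and 119 CPM, whereas the Scn7a/Cldn10 one had 7.95 and 15.5 CPM. In neurons, Tbx19 neuron-like cells stood out at 91.1 and 107 CPM, 275 and 261 UMIs, and the Trh/Ebf1/Nkx2-4 cluster had 52.6 and 39.2 CPM. Sfrp1 was near 0 in suprachiasmatic neuron-like cells, with 3 and 1 UMIs in the Vip/Avp cluster.

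Dkk3 (chr7:112116017-112159057, minus strand), a secreted member of the Dickkopf family whose effect on Wnt signals varies between tissues, was most abundant in non-neuronal cells. Tanycyte-like cells had 94.9 CPM in control and 93.4 CPM in dHet, ependymal-like cells 75.3 and 128 CPM, and astrocyte-like cells 58.5 and 45.5 CPM. Among neurons the Fezf1/Cbln1 ventromedial neuron-like cluster led, at 52.9 and 22.1 CPM. Fxyd1, Ccdc80 and Fgf2 were its nearest genes (r from 0.85 to 0.87).

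The feedback inhibitors had low levels, which among the reported clusters of the 30 peaked in ependymal- or tanycyte-like cells. Axin2 (chr11:108920349-108950783, plus strand), a scaffold of the β-catenin destruction complex, had 47.4 CPM in control and 23.1 CPM in dHet ependymal-like cells, from 17 and 9 UMIs, and 29.9 and 33.2 CPM in the larger tanycyte-like cluster. These intervals overlap. Neuron-like cells lay at 7.06 and 6.31 CPM, and the Trh/Unc13c/Bmp2 cluster had 16.2 and 10.4 CPM. Nkd1 (chr8:88521354-88594884, plus strand), an inhibitor that binds Dishevelled, had its top level in the larger tanycyte-like cluster at 78.3 and 59.2 CPM. Suprachiasmatic neuron-like cells were the neurons with the most Nkd1, at 47.2 and 27.1 CPM in the Grp/Vip cluster and 37.8 and 19.1 CPM in the Vip/Avp cluster. Oligodendrocyte precursor-like cells had 43.9 and 37.4 CPM.

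Members at least 2-fold higher in both libraries than in all other cells were counted per class. For tanycyte-like cells they numbered 8, all but Lef1 and Wif1, where 11% of all genes met the same rule. The larger tanycyte-like cluster alone had the same 8 (10.8% of all genes). The Scn7a/Cldn10 one had 4, Tcf7l1, Dkk3, Frzb and Fzd5 (7.52%). Astrocyte-like cells had 3 (Tcf7l1, Tcf7l2 and Dkk3, against 11.4% of all genes), and ependymal-like cells 4 (14.3%). Neuron-like cells had none (9.82% of all genes), while 8 of the 10 members were at least 2-fold lower there, which 14.9% of all genes were. These counts describe clusters made from the same cells. Part of the larger tanycyte-like cluster took the ependymal name at a finer clustering, as described next. The count for tanycyte-like cells was 6 at that clustering, and 4 with Wnt genes allowed among the genes that defined clusters.

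The larger tanycyte-like cluster was itself mixed in its Wnt genes. At a finer clustering (Leiden resolution 2 in place of 1) it came apart into a subcluster led by Crym, Prss56 and Col23a1, with 115 control and 97 dHet cells, and one led by S100a6, S100a4 and Pdzph1, with 141 and 113 cells, which on its markers took the ependymal name. Frzb was at 393 CPM in control and 380 CPM in dHet in the Crym/Prss56 subcluster and at 15.7 and 20.9 CPM in the S100a6/S100a4 one. Fzd5 was at 399 and 357 CPM against 108 and 124 CPM. Sfrp1 went the other way, with 59.0 and 56.8 CPM against 161 and 188 CPM, and so did Axin2, with 19.9 and 17.2 CPM against 39.7 and 51.2 CPM. Dkk3 was at 134 and 128 CPM against 66.2 and 77.9 CPM, whereas Tcf7l1 and Tcf7l2 had overlapping intervals in the 2 subclusters of each library. The 2 antagonists of the same family, Frzb and Sfrp1, thus marked different cells of the cluster. The bar plots of tanycyte-related clusters show this split beside the other ventricular and glial clusters.

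**Figure D3:**
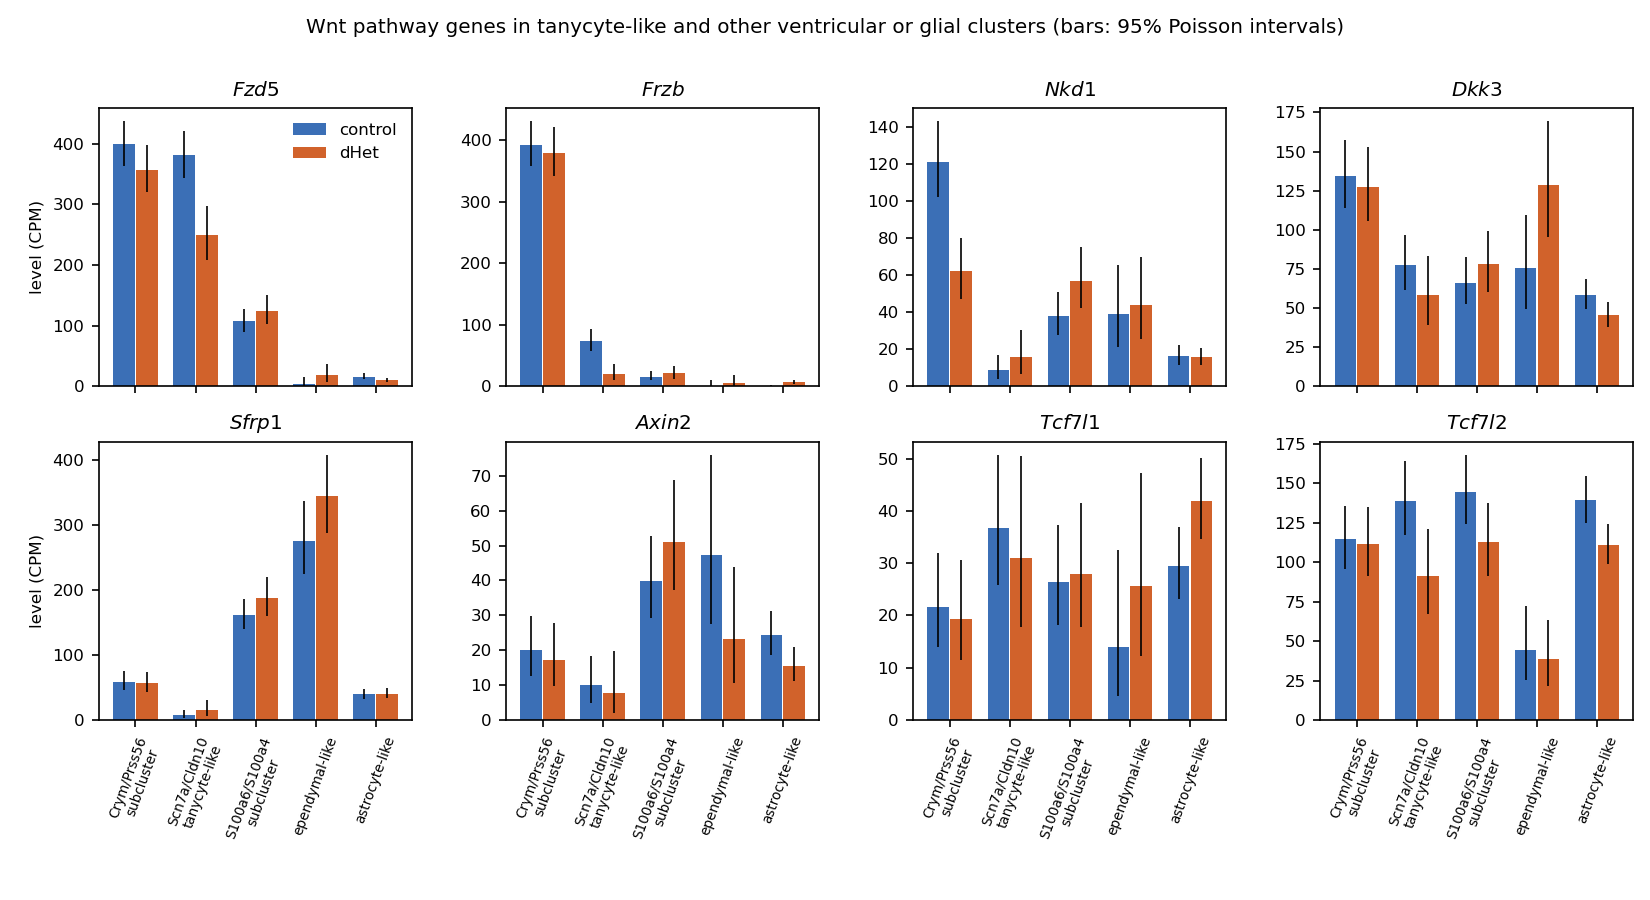
Level (CPM) of 8 members in the 2 subclusters of the larger tanycyte-like cluster, the smaller tanycyte-like cluster and 2 other clusters, in the control (blue) and dHet (orange) library; black lines are 95% Poisson intervals. Frzb and Fzd5 are high in the Crym/Prss56 subcluster, Sfrp1 in the S100a6/S100a4 subcluster and ependymal-like cells, and Nkd1 in the Crym/Prss56 subcluster is at 121 CPM in control and 62.2 CPM in dHet.

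The same split appeared cell by cell. At 4000 UMIs per cell, 80.0% (70.2 to 87.7%) of control cells of the larger tanycyte-like cluster with a Frzb UMI also had a Fzd5 UMI, against 48.7% of all its cells. In the dHet library the shares were 69.1% (56.7 to 79.8%) and 52.7%. Of cells with a Sfrp1 UMI, 20.3% (12 to 30.8%) in control and 23.4% (13.8 to 35.7%) in dHet had a Frzb UMI, against 38.8% and 36.6% of all cells. The intervals of both pairs leave out the share among all cells in both libraries. Cells were clustered without the Wnt genes.

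The genotype comparison asks whether the level of a member differs between the dHet and the control library within a class. Over all kept cells all 10 members were lower in the dHet library, with a median log2 ratio (5 CPM added to each side) of -0.25 against -0.03 over all genes. Below 0 were also 61.2% of all genes. None of the 10 passed 1.5-fold on this scale, and 0.551% of all genes did. The ratios of CPM without the added 5 ran from 0.649 for Nkd1 (606 and 445 UMIs, interval 0.573 to 0.734) to 0.879 for Sfrp1 (1482 and 1474 UMIs, interval 0.817 to 0.945). The mix of cells differed at the same time, since tanycyte-like cells made up 10.4% of control and 7.34% of dHet cells and neuron-like cells 65.2% and 74.2%. With the dHet clusters weighted as in the control library, a choice made after seeing the data, 8 of the 10 were below 0, the median was -0.09, and Fzd5 moved from -0.42 to -0.17 and Frzb from -0.30 to -0.01. Tcf7l2 stayed at -0.33.

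Within neuron-like cells together, 9 of the 10 members were below 0, as were 58.2% of all genes, and none passed 1.5-fold (0.283% of all genes). Lef1 had a ratio of 0.691 (0.595 to 0.802) there, Dkk3 0.708 (0.625 to 0.803) and Nkd1 0.680 (0.566 to 0.816). Frzb went the other way from 39 and 73 UMIs, 1.57 (1.05 to 2.38), at 0.735 and 1.15 CPM. Of these UMIs 25 and 60 came from the Adcyap1/Tac1 cluster, which made up 1.36% of control and 2.30% of dHet cells. That cluster had a Frzb ratio of 1.13 (0.696 to 1.88) itself. Lef1 UMIs came mostly from the Trh/Unc13c/Bmp2 cluster. This cluster held 109 of 2259 control and 118 of 2901 dHet neuron-like cells. Its own Lef1 ratio, given below, had an interval that spanned no change. The Lef1 levels given above were also lower in dHet in Bsx/Cartpt glutamate neuron-like cells and in the Crabp1/Barhl2/Nts cluster. The part of the mix of neuron clusters in the Lef1 ratio was not tested. With the dHet clusters weighted as in the control library, 8 of the 10 members were below 0 in neuron-like cells.

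The ratios within glial classes and single clusters varied by class. In the larger tanycyte-like cluster 8 members had at least 50 UMIs, the minimum for a ratio, and none passed 1.5-fold, where 4.69% of all genes did. Fzd5 had a ratio of 0.969 (0.855 to 1.10), Frzb 1.04 (0.909 to 1.20), Sfrp1 1.08 (0.897 to 1.30) and Dkk3 1.01 (0.831 to 1.23). Nkd1 had the lowest, 0.756 (0.590 to 0.964). With both tanycyte-like clusters together no member with 50 UMIs passed either (4.08% of all genes), and Fzd5 had a ratio of 0.845 (0.761 to 0.938). Of 7 members measured in astrocyte-like cells none passed 1.5-fold (4.11% of all genes), with 5 below 0 where 52.9% of all genes were. Tcf7l1 was higher in dHet astrocyte-like cells, 74 and 116 UMIs and a ratio of 1.42 (1.05 to 1.93), while Tcf7l2 (0.798, 0.683 to 0.933), Axin2 (0.639, 0.422 to 0.960) and Dkk3 (0.778, 0.608 to 0.993) were lower. In the Trh/Unc13c/Bmp2 cluster Lef1 had a ratio of 0.906 (0.746 to 1.10) and Wif1 of 0.957 (0.785 to 1.17), and none of the 6 members measured there passed 1.5-fold (2.98% of all genes). The plot of ratios shows these classes side by side.

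**Figure D4:**
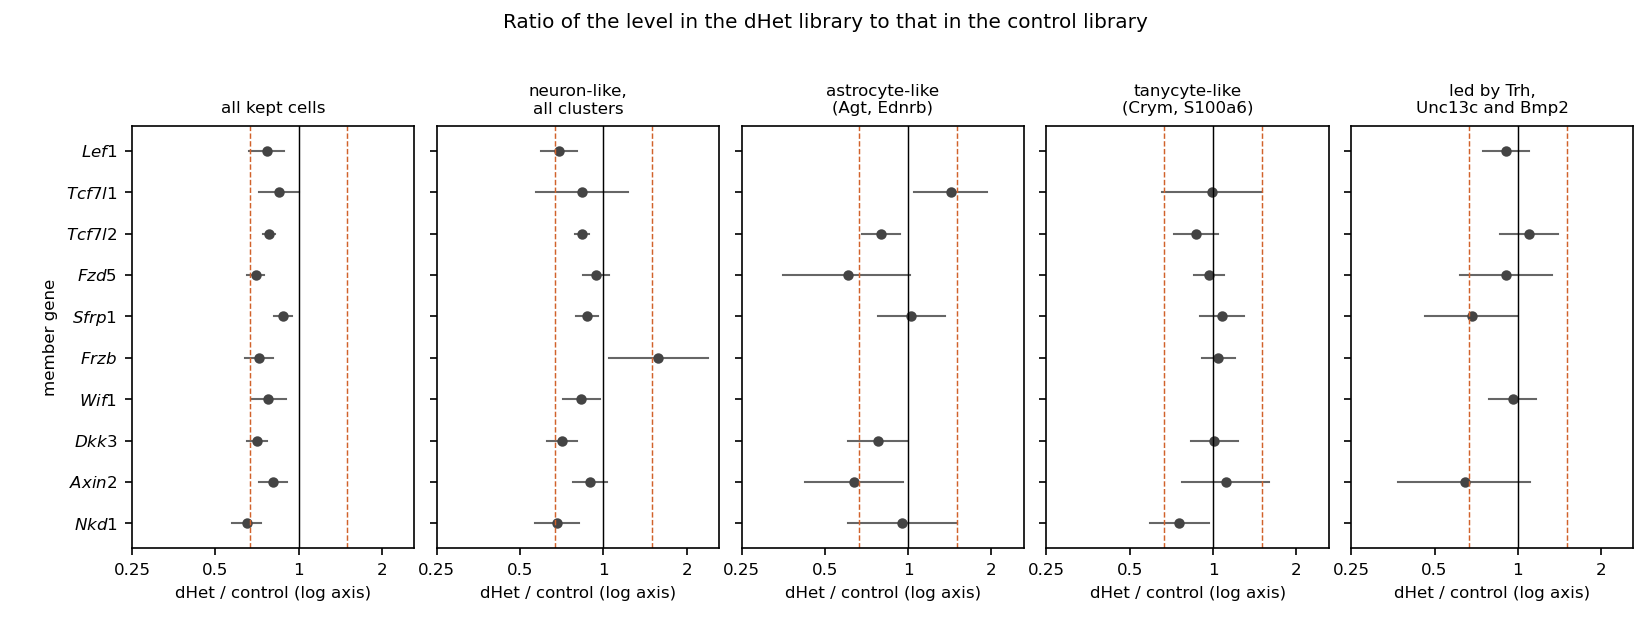
Ratio of the level in the dHet library to that in the control library (log axis) for members with at least 50 UMIs, over all kept cells and in 4 classes; lines are 95% intervals for counting error, and dashed lines mark 1.5-fold without the 5 CPM that the call adds to each side. Over all cells every point lies below 1, from 0.649 to 0.879, while in the larger tanycyte-like cluster the points lie between 0.756 and 1.11.

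Over the 14 compared clusters, 52 pairs of a member and a cluster had at least 50 UMIs, and 5 pairs (9.62%) passed 1.5-fold, 4 of them lower in dHet. Of all pairs of a gene and a cluster 2.6% passed, 1.7% on the lower side, and 3.25% of those with at most 500 UMIs, as 46 of the 52 member pairs had. Below 0 were 69.2% of the member pairs and 55.8% of all pairs. No test stands behind these counts.

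Tcf7l2 gave 2 of the 5 pairs, in opposite directions. In Bsx/Cartpt glutamate neuron-like cells it had 330 control and 129 dHet UMIs, 81.1 and 43.2 CPM, a ratio of 0.533 (0.431 to 0.655), in a cluster where 1.54% of all genes passed. In the Fezf1/Cbln1 ventromedial neuron-like cluster it had 21 and 145 UMIs, 5.61 and 32.4 CPM, a ratio of 5.76 (3.63 to 9.6), where 2.96% of all genes passed. There 45.2% of its UMIs lay in 5 cells, 7 of 128 control and 27 of 175 dHet cells had any, and at 4000 UMIs the shares were 2.48% (0.514 to 7.07%) and 6.43% (3.25 to 11.2%), whose intervals overlap. At the finer clustering the excess lay in the subcluster led by Fezf1, Cbln1 and Bdnf (19 and 143 UMIs), and the one led by Crhbp had 2 UMIs in each library. Lower dHet levels of Tcf7l2 short of 1.5-fold were seen in the Crabp1/Barhl2/Nts cluster, with 671 and 607 UMIs and a ratio of 0.675 (0.604 to 0.755), where 0.851% of all genes passed. Some clusters under 100 cells in a library went the same way. The Slc17a8/Prdm13 ventromedial neuron-like cluster had 99.1 and 53.0 CPM (0.535, 0.422 to 0.678) and the Adcyap1/Tac1 cluster 257 and 184 CPM (0.715, 0.617 to 0.828). Oligodendrocyte-like cells had 612 and 377 CPM (0.616, 0.522 to 0.727). Crabp1 neuron-like cells had 143 CPM in both. The small Wfdc2/Epcam/Atf3 cluster went the other way, with 18 and 28 UMIs, 52.8 and 142 CPM (2.69, 1.43 to 5.16). It held 24 control and 18 dHet cells, and 39.1% of these UMIs lay in 5 cells. Among the clusters named here, Tcf7l2 was thus lower in most where it was abundant. It was higher in that small cluster and in the Fezf1/Cbln1 cluster, where it was scarce in control cells.

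Dkk3 was the other member past 1.5-fold in the Fezf1/Cbln1 cluster, at 198 and 99 UMIs, 52.9 and 22.1 CPM, a ratio of 0.417 (0.325 to 0.534). Unlike Tcf7l2, it was lower in both subclusters, with 101 and 74 UMIs (0.432, 0.315 to 0.588) in the Fezf1/Cbln1/Bdnf one and 97 and 25 UMIs (0.412, 0.254 to 0.646) in the Crhbp one. At full depth 59.4% of control and 32.6% of dHet cells had a Dkk3 UMI, at median depths of 31002.5 and 25085 UMIs; at 4000 UMIs the shares were 19% (12.4 to 27.1%) and 8.77% (4.99 to 14.1%), and in Vip/Avp suprachiasmatic neuron-like cells 0 in both libraries.

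Nkd1 in Vip/Avp suprachiasmatic neuron-like cells had 74 and 43 UMIs, 37.8 and 19.1 CPM, a ratio of 0.506 (0.339 to 0.746), where 4.14% of all genes passed. The smaller Grp/Vip cluster, too small to be compared, had 13 and 9 UMIs. Sfrp1 in the cluster led by Ppp1r17, Fam19a4 and Pdyn had 43 and 19 UMIs, a ratio of 0.547 (0.301 to 0.959), the weakest of the 5 by its interval, where 3.73% of all genes passed.

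Some differences lay in groups of cells under 100 per library or at the finer clustering, and are given as values. In the Crym/Prss56 subcluster Nkd1 had 140 and 58 UMIs, 121 and 62.2 CPM, a ratio of 0.512 (0.371 to 0.7), while in the S100a6/S100a4 subcluster it had 46 and 49 UMIs and a ratio of 1.5 (0.98 to 2.29). Frzb and Fzd5 in the Crym/Prss56 subcluster had ratios of 0.966 (0.838 to 1.11) and 0.895 (0.775 to 1.03). In the Scn7a/Cldn10 tanycyte-like cluster, with 101 control and 76 dHet cells and median depths of 10978 and 6827.5 UMIs, Frzb had 74 and 10 UMIs (0.264, 0.122 to 0.513) and Fzd5 384 and 129 (0.656, 0.533 to 0.803). The part of the depth difference in these values was not tested. Lef1 had 0 control UMIs there, where 3 UMIs would be 2.98 CPM, and 14 dHet UMIs, all in 4 cells.

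The other Wnt pathway genes, 135 of which are in the table, give the setting. Over all kept cells 120 of them had at least 50 UMIs, 84 were below 0 (61.2% of all genes were), none passed 1.5-fold (0.551% of all genes did), and their median log2 ratio was -0.06. The canonical machinery was present, with Ctnnb1 (β-catenin) at 191 and 179 CPM, the kinase gene Gsk3b at 549 and 539 CPM, the receptor gene Fzd3 at 63.6 and 56.0 CPM and the ligand gene Wnt4 at 30.0 and 32.9 CPM.

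In astrocyte-like cells 77 of these genes were measured and 5 passed 1.5-fold, all lower in dHet, where 2.45% of all genes were; with 20 CPM added in place of 5 CPM, 1 passed. They were Jag1, a Notch ligand often listed as a Wnt target (52 and 24 UMIs, ratio 0.419, 0.247 to 0.691), the ligand Wnt7a (0.467, 0.301 to 0.712), the binding protein Igfbp4 (0.560, 0.34 to 0.908), the corepressor Tle4 (339 and 219 UMIs, 0.586, 0.492 to 0.697) and the receptor Fzd1 (0.609, 0.463 to 0.799). In the larger tanycyte-like cluster 6 of 71 passed, 3 in each direction, where 4.69% of all genes passed. With both tanycyte-like clusters together 5 of 77 passed (4.08% of all genes). With the members counted too, only 1 passed with the library matrices and 1 at Leiden resolution 2. Lower were Bambi, a decoy receptor of the TGF-β family listed as a Wnt target (168 and 57 UMIs, 0.446, 0.324 to 0.606), Fzd2 (0.563, 0.426 to 0.738) and Fzd3 (0.610, 0.506 to 0.734). Higher were Wnt8b, with 69.3% of its UMIs in 5 cells, Nkd2 and Tnfrsf19. Fzd2 and Fzd3 were thus lower in a cluster where Fzd5 had a ratio of 0.969.

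Agrp/Npy neuron-like cells had 70 of these genes measured. Tle1, a corepressor of TCF factors, was higher in dHet at 150 and 446 UMIs, a ratio of 1.74 (1.45 to 2.11), and Wnt4 (0.567, 0.435 to 0.738) and Bambi (0.480, 0.369 to 0.624) were lower, where 1.75% of all genes passed. Bambi was thus lower past 1.5-fold in 3 compared clusters, the third being the Trh/Unc13c/Bmp2 cluster (68 and 34 UMIs, 0.548, 0.352 to 0.838), in which Lef1 and Wif1 peaked. Fgf9 was also lower past 1.5-fold there and in Tbx19 neuron-like cells. Of all pairs of a gene and a compared cluster, 1.7% were lower past 1.5-fold. How many of all genes recurred in as many clusters was not counted. In the Fezf1/Cbln1 cluster 75 were measured, and 5 passed, where 2.96% of all genes did. Wnt4 and Tpbg were higher, and Fzd1, Igfbp4 and Sostdc1 lower.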

How the data were processed

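The authors deposited gene-by-cell counts of unique molecular identifiers, 1 merged table of 3479 control and 3939 dHet barcodes and 1 matrix per library, made with Cell Ranger 3.0.2 on mm10 per the file headers and the submitters' processing notes; all reported values used the merged counts, and the matrices served as an alternative. Totals over kept cells were 62795271 and 71078450 UMIs. Doublets called by Scrublet (0.402% of control and 0.787% of dHet cells) were removed. Cells of both libraries were clustered in scanpy 1.11.5 (2000 variable genes without Wnt genes, 30 principal components, 15 neighbours, Leiden resolution 1) and named from marker lists. A cluster counted as neurons with at least 8 of 12 neuron markers, a threshold set after seeing the data. UMIs were summed per cluster and library. Level intervals are Poisson, ratio intervals exact conditional binomial and share intervals Clopper-Pearson, all at 95% for counting error only. A ratio was read at 50 UMIs or more and called past 1.5-fold on log2(CPM + 5); no p-value was computed. The ratio and interval code was checked on simulated data. Named beside the members were other Wnt genes past 1.5-fold in the classes described and, per member, the 3 genes with the highest lower correlation over 30 clusters. Further Wnt genes past 1.5-fold in other compared neuron clusters were not described. They were Dvl1, Ccnd1, Ccnd2, Fzd9, Tpbg, Tle4, Dkkl1, Id2, Rspo1 and Dact1. Members and lists were chosen with earlier results of these data known. The levels of 1 described cluster are not reported here.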

Additional observations from a re-analysis of the deposited data

Results flagged for a closer look

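Tcf7l2 was singled out because its log2 ratio between the dHet and the control library lay past 1.5-fold in opposite directions in 2 neuron clusters. It was 1.82 in the Fezf1/Cbln1 ventromedial neuron-like cluster (21 and 145 UMIs, 45.2% of them in 5 cells) and -0.84 in Bsx/Cartpt glutamate neuron-like cells (330 and 129 UMIs). With 1 library per genotype the difference between the 2 clusters was not tested.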

How the results depend on the processing

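No paired analysis was possible because each genotype is 1 library and the labels give no shared replicate numbers, and for the same reason no replicate could be left out. Of 1020 member ratios recomputed under the alternatives, 937 kept their sign, 38 passed 1.5-fold where the reported one had not, and 122 moved beyond their interval. The 5 pairs past 1.5-fold ranged in log2 ratio from -1.74 to -0.77 (Dkk3, ventromedial), -0.95 to -0.56 (Nkd1, past in 12 of 13), -0.93 to -0.33 (Sfrp1, past in 8 of 12), -1.01 to -0.68 (Tcf7l2, Bsx/Cartpt) and 0.66 to 2.33 (Tcf7l2, ventromedial). The number of such pairs was 5, but 2 with cells thinned to 4000 UMIs, 11 with the cells that lay from the 25th to the 75th percentile of UMIs, 9 with 1 CPM and 3 with 20 CPM added, 10 with a minimum of 20 UMIs, 2 with 200 and 11 with none. Members and other Wnt genes past 1.5-fold, counted together, were 5 in astrocyte-like cells. They were 9 with 1 CPM, 1 with 20 CPM, 2 with at least 200 UMIs and 9 with no minimum. In tanycyte-like cells they were 5, but 1 from the library matrices, 1 at Leiden resolution 2, 8 with cells weighted equally, 3 with clusters weighted equally, 8 with 1 CPM, 3 with 20 CPM, 8 with at least 20 UMIs, 3 with 200 and 11 with no minimum. In neuron-like cells they were 0, and 1 with 1 CPM. Members below 0 in astrocyte-like cells were 5, but 2 with thinned cells, 2 from the 25th to the 75th percentile and 2 with at least 200 UMIs. Members at least 2-fold higher in tanycyte-like cells were 8, but 4 with Wnt genes allowed among the variable genes. They were 6 at Leiden resolution 2 and 6 from the library matrices. The cause of these moves was not tested, except that a higher or lower minimum changes the number of genes read. Thinned to 4000 UMIs per cell, the 5 pairs kept log2 ratios past 1.5-fold. These were -0.77 for Dkk3, -0.74 for Nkd1 and -0.84 for Sfrp1. For Tcf7l2 they were -1.01 (Bsx/Cartpt) and 1.31 (ventromedial). The count of 2 with thinned cells thus does not mean that these ratios fell below 1.5-fold. Thinning also leaves fewer UMIs to reach the minimum for a ratio. The part of that minimum in the thinned counts was not tested. At resolution 0.5, 10 clusters had no match and gave no value. The weighting of clusters as in the control library was added after seeing the data.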
